A study of Mus musculus with 12 samples.

Results

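The 10 genes described here encode the 5 subunits of the transcription factor NF-kB (Nfkb1, Nfkb2, Rel, Rela and Relb) and 5 of its inhibitors and nuclear cofactors (Nfkbia, Nfkbie, Nfkbiz, Tnfaip3 and Bcl3). They were taken by name, 10 of 52355 genes, from transcript-level estimates summed to genes. All 10 passed the filter on low counts that left 23729 genes for testing. The estimated count of a member in a library lay between 1340 (Bcl3) and 39496 (Nfkb1).

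The RNA was that of CD11c cells taken from inguinal nodes of mice, 4 libraries in each of 3 groups. In the agonist group (TdLN_CD40) the node drained a subcutaneous KPC tumor and the mouse was given a CD40 agonist. In the tumor group (TdLN) the node drained such a tumor and no agonist was given. In the healthy group (Healthy_iLN) there was neither tumor nor agonist. KPC is a common name for cells of a mouse pancreatic cancer model, which the labels do not spell out. Strain, age, sex, agonist dose and timing, any control treatment, pooling of animals and the way CD11c cells were isolated are not stated in the labels. Nor is it stated that a group's libraries are from different animals, so the p-values measure the spread between libraries, and part of that may be technical.

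NF-kB acts as pairs of Rel family subunits. Rela, Rel and Relb carry a domain that activates transcription, whereas Nfkb1 and Nfkb2 are made as long precursors that are cut to subunits without one. In resting cells the pairs are held in the cytoplasm by IkB proteins such as the products of Nfkbia and Nfkbie, and the kinase complex IKK marks these for destruction when a receptor signals. CD40, a receptor of the tumor necrosis factor family on dendritic cells, signals both through this canonical route and through a slower one, in which the kinase encoded by Map3k14 leads to cutting of the Nfkb2 precursor and release of Relb. Relb is long known as a factor of dendritic cell development and maturation. Several members are themselves NF-kB target genes and so form feedback loops.

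Library totals were 32626784 to 56320661 estimated counts. Malat1, a nuclear noncoding RNA, took 0.417% to 2.47% of a library and mitochondrial genes 1.23% to 4.75%. Each library title opens with a prefix that is shared by 1 library of each group and gave the replicate number, 1 to 4; what it stands for is not stated. Genes were tested with edgeR's quasi-likelihood test and Benjamini-Hochberg adjustment over all 23729 genes, once with the group alone and once with the prefix as a further term (the prefix block). A gene was called at an adjusted p under 0.05. The typical variation between libraries of a group was 33.9% in the fit without the block. In the fit with it, the typical variation left after the prefix was taken into account was 20.7%.

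Promoter sequence was looked up because several members are known targets of their own pathway. RefSeq promoters (GRCm38.p6, 250 bases before to 50 after a start) were found for 7 of the 10 members. The consensus kappaB site, the binding sequence of NF-kB, was present on either strand in 5 of them (Nfkbia, Rel, Nfkb2, Tnfaip3 and Bcl3). Among all 27025 genes with such a promoter, 6.55% held it. Rela and Nfkbie had no match in these windows. The stretches below run 5′ to 3′ on the strand of the gene, with the matching bases in capitals.
Nfkbia (chr12:55492648-55492767, minus strand, the last 120 bases before the start): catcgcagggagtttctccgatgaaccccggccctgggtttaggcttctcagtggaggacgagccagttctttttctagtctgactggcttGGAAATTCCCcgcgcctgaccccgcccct
Rel (chr11:23770971-23771089, minus strand, 2 overlapping matches): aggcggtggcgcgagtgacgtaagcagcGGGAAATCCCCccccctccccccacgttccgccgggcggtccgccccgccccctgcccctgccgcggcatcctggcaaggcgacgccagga
Nfkb2 (chr19:46304688-46304717, plus strand): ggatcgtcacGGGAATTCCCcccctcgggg
Nfkb2 (chr19:46304716-46304745, plus strand): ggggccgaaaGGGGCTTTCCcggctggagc
Tnfaip3 (chr10:19015403-19015432, minus strand): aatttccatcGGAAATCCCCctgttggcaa
Bcl3 (chr7:19822734-19822763, minus strand): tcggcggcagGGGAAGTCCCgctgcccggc
Such a match is a run of letters, not a measured binding site, and binding was not measured here.

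Levels were compared between genes in TPM (transcript abundance scaled to the same total in each library), which is scaled by transcript length. Nfkbia had the highest level in every library, with a mean of 335 ± 65.9 TPM in agonist nodes, 239 ± 20.5 in tumor nodes and 237 ± 21.6 in healthy nodes (SD, n = 4 each). No Nfkbia library overlapped the next gene in its group. Rela and Rel were near the bottom, Rela at 29.5 ± 6.54, 27.6 ± 4.89 and 27.8 ± 4.41 TPM in agonist, tumor and healthy nodes. Rel stood at 14.8 ± 2.31, 11.8 ± 1.13 and 12.3 ± 2.44 TPM in the same order of groups. Nfkbiz was lowest on average, at 9.7 ± 2.04, 10.1 ± 1.92 and 11.9 ± 3.37 TPM, and overlapped Rel in tumor and healthy nodes. The middle of the order held Relb, Nfkb1, Tnfaip3, Bcl3, Nfkb2 and Nfkbie. Most neighbours there overlapped within a group, but inside single libraries their order was often the same. In agonist nodes each exceeded the next in 4 of 4 libraries, except Tnfaip3 over Nfkb1 (3 of 4). In tumor nodes the exception was Bcl3 over Tnfaip3 (2 of 4). In healthy nodes Relb over Nfkb1 and Nfkb1 over Tnfaip3 held in 2 of 4 libraries, and Bcl3 over Nfkb2 in 3 of 4. The TPM of a gene was summed over its annotated transcripts, so the order also depends on how reads were divided among them. In agonist nodes Bcl3 averaged 71.4 CPM and 100 TPM, and Nfkb2 averaged 419 CPM and 89.9 TPM. The main Bcl3 transcript held 55% of that gene's counts on average. Nfkb1 had rank 4 by mean in agonist nodes, 2 in tumor nodes and 3 in healthy nodes. Nfkbie, Rela and Rel did not overlap one another in any group.

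**Figure D1:**
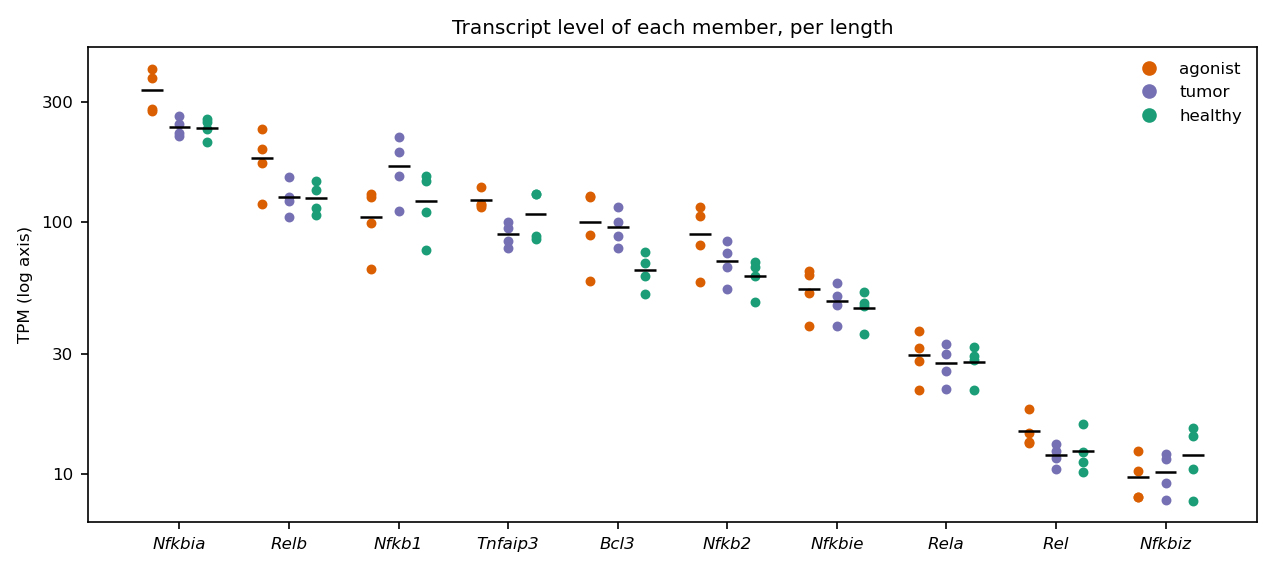
Level of each member in TPM (log axis), 1 point per library and a black line at the group mean, with agonist, tumor and healthy nodes from left to right for each gene. Nfkbia is highest and Nfkbiz lowest on average, and Nfkb1 changes its place in the order between groups.

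The comparison of agonist with tumor nodes asks what the agonist adds in tumor-bearing mice. Relb, Nfkb2 and Rel among the subunits and Nfkbia and Tnfaip3 among the inhibitors rose with the block, and Nfkb1 fell. That made 5 of 10 members higher and 1 lower, beside 6.74% of all genes called higher and 6.58% called lower in the same fit (13.3% in all). Without the block no member was called, beside 2.68% of all genes (1.85% higher and 0.83% lower), and 5 members had an unadjusted p under 0.05. The median log2 fold change was 0.26 over the members and 0.02 over all genes in both fits. Groups did not overlap for 2 members (Rel and Tnfaip3), as for 8.26% of all genes. In bulk RNA such as this, fewer cells of a type and less RNA per cell cannot be told apart.

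Agonist nodes against healthy nodes gave 2 members called without the block, Relb and Nfkbia, both higher, beside 4.25% of all genes called higher and 2.03% lower (6.28% in all). With the block 6 were higher (Relb, Nfkb2, Bcl3, Nfkbia, Nfkbie and Rel) and none lower, beside 11.7% and 8.46% of all genes (20.1% in all). The median log2 fold change of the members was 0.33 in both fits, against -0.03 over all genes. Relb and Nfkbia did not overlap between the groups, as 12.4% of all genes did not. In tumor against healthy nodes no member was called without the block, beside 0.198% of all genes (0.181% higher and 0.0169% lower), and 1 member (Bcl3) had an unadjusted p under 0.05. Bcl3 and Nfkb1 rose with the block, 2 of 10 members, beside 4.02% of all genes called higher and 2.28% lower (6.3% in all). The members' median log2 fold change was 0.07 without the block and 0.06 with it, against -0.02 over all genes, and all 10 members overlapped between these groups, as all but 4.26% of genes did. The 3 comparisons share libraries and are not independent of one another.

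**Figure D2:**
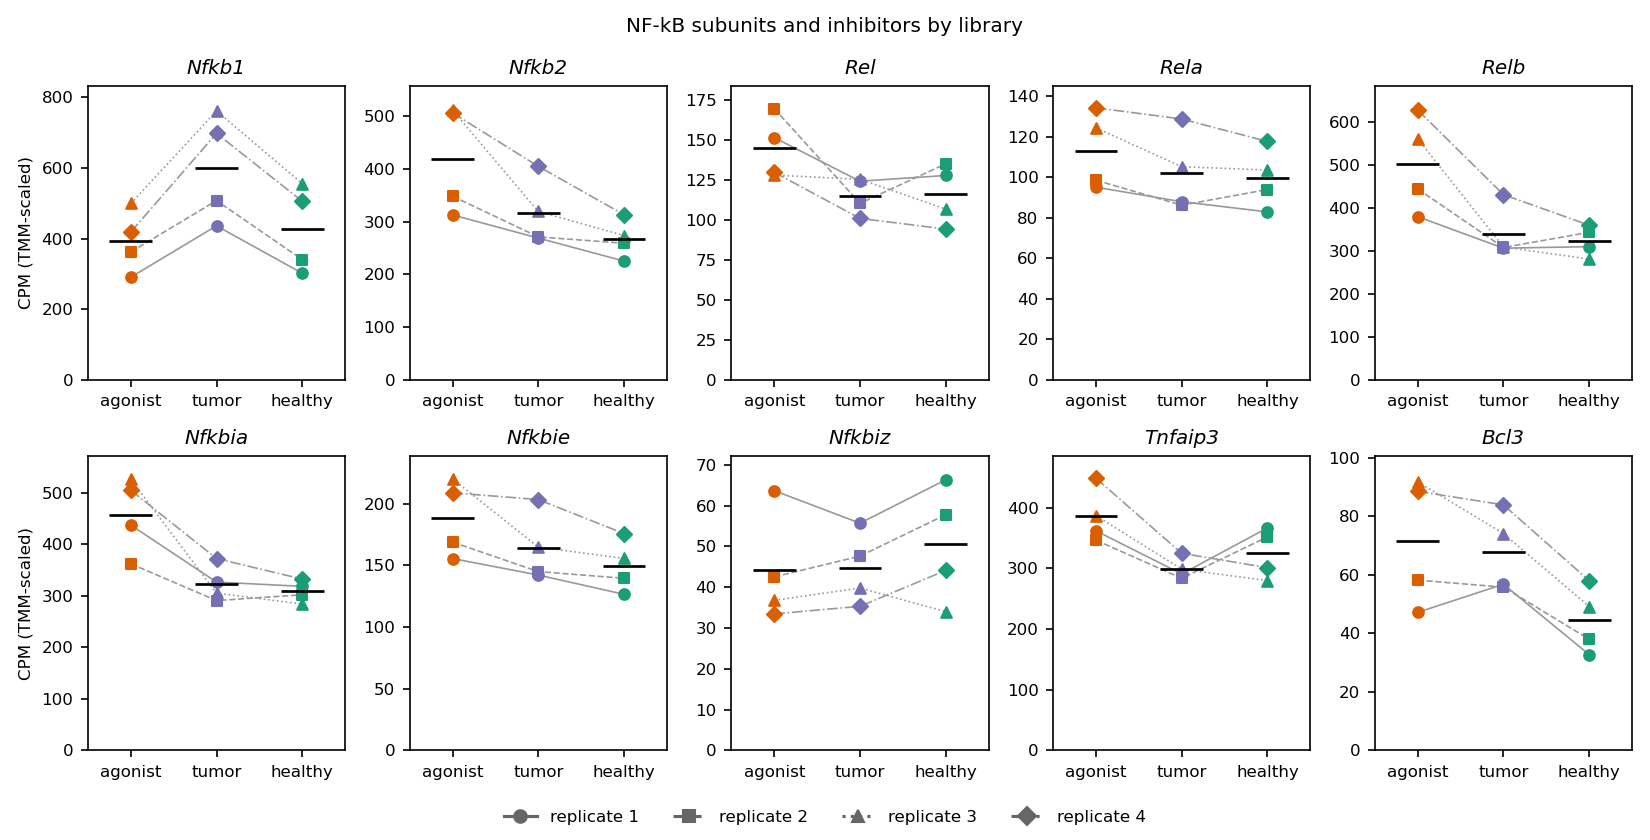
Counts of the 10 members per library total (CPM, TMM-scaled) in each library, agonist, tumor and healthy nodes from left to right, black lines at group means and grey lines joining libraries with the same title prefix. Relb, Nfkb2 and Nfkbia are among the members highest on average in agonist nodes. Nfkb1 peaks in tumor nodes along all 4 lines, and Bcl3 is lowest in healthy nodes along all 4.

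Relb, the subunit released by the slower route, had 380.4, 445, 562 and 629 CPM in agonist replicates 1 to 4, 307, 309, 309.8 and 432 CPM in tumor replicates, and 311, 344, 282 and 361 CPM in healthy replicates. All agonist libraries lay above all healthy ones, and 1 tumor library (replicate 4) reached into the agonist range. Against healthy nodes Relb rose 1.55-fold (log2 fold change 0.64, SE 0.18, adjusted p = 0.0455) without the block and 1.53-fold (0.62, SE 0.11, adjusted p = 0.00192) with it. Against tumor nodes it was 1.49-fold higher without the block (0.57, SE 0.18, adjusted p = 0.12), and 1.48-fold higher with it (0.57, SE 0.11, adjusted p = 0.00503). It was higher in 4 of 4 prefixes in both comparisons, with the widest difference in replicate 3. Tumor and healthy nodes differed by 0.05 on the log2 scale (SE 0.11, adjusted p = 0.803 with the block), higher in 2 prefixes and lower in 2. The call against healthy nodes without the block was narrow: it was lost in 10 of the 12 fits that left out 1 library (adjusted p 0.0545 to 0.171), all but those without agonist replicate 1 or tumor replicate 4, whereas with the block it held in all 12.

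Nfkb2, whose precursor is cut in the same route, had 313, 348, 511 and 506 CPM in agonist replicates 1 to 4, 269, 271, 319 and 405 CPM in tumor replicates and 225, 259, 274 and 313 CPM in healthy replicates. Within every prefix the agonist library was highest and the healthy one lowest, although the groups overlapped. Agonist nodes stood 1.54-fold above healthy nodes with the block (log2 fold change 0.63, SE 0.09, adjusted p = 0.000474) and 1.57-fold without it (0.65, SE 0.19, adjusted p = 0.0612). Against tumor nodes the rise was 1.32-fold with the block (0.40, SE 0.09, adjusted p = 0.0108), and without it the adjusted p was 0.389. The tumor difference from healthy nodes was smaller, 1.17-fold, and did not pass in either fit (adjusted p = 0.138 with the block, 0.792 without).

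Nfkb1 went the other way. It had 291, 362, 499.5 and 419 CPM in agonist replicates 1 to 4, 436, 508, 762 and 698 CPM in tumor replicates and 302, 341, 556 and 506 CPM in healthy replicates. In each prefix the tumor library was the highest, while the spread between prefixes was wide enough for all groups to overlap. With the block Nfkb1 rose 1.42-fold in tumor against healthy nodes (log2 fold change 0.51, SE 0.07, adjusted p = 0.004), and fell to 0.659 of the tumor level in agonist nodes (-0.60, SE 0.07, adjusted p = 0.000334). Per prefix the log2 difference ranged over 0.45 to 0.58 in tumor against healthy nodes and over -0.74 to -0.49 in agonist against tumor nodes. Without the block the adjusted p was 0.655 and 0.253. Agonist and healthy nodes differed by -0.10 (SE 0.07, adjusted p = 0.386 with the block), with 1 prefix higher and 3 lower.

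Malat1 moved opposite to Nfkb1 in both of these comparisons. It averaged 16004 ± 7315 CPM in agonist, 9672 ± 5147 in tumor and 15228 ± 8102 in healthy nodes (SD, n = 4 each). With the block it fell by 0.65 on the log2 scale in tumor against healthy nodes (adjusted p = 0.0122, lower in 4 of 4 prefixes), and rose by 0.76 in agonist against tumor nodes (adjusted p = 0.00187, higher in 4 of 4). Neither passed without the block (adjusted p = 0.766 and 0.611). Between prefixes the same pattern appeared: replicates 3 and 4 had 1.41, 1.55 and 1.65 times as much Nfkb1 as replicates 1 and 2 in agonist, tumor and healthy nodes, and 0.451, 0.406 and 0.369 times as much Malat1. This split between prefixes was not particular to Nfkb1. Bcl3 (1.71, 1.404 and 1.52 times), Nfkb2 (1.54, 1.34 and 1.21 times), Rela and Nfkbie were also higher in replicates 3 and 4 in each group. Rel and Nfkbiz were lower there in each group. Relb, Nfkbia and Tnfaip3 were higher there in agonist and tumor nodes and lower in healthy nodes. The part of RNA composition or quality in the Nfkb1 result was not tested.

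Rel, the subunit best known from activated lymphocytes and dendritic cells, had 152, 169.7, 128 and 129.9 CPM in agonist replicates 1 to 4, 124, 111, 126 and 101 CPM in tumor replicates, and 128, 135, 107 and 94.4 CPM in healthy replicates. Every agonist library was above every tumor library, by a narrow margin at 128 against 126 CPM. Agonist nodes were 1.25-fold higher than tumor nodes with the block (log2 fold change 0.32, SE 0.09, adjusted p = 0.0321) and by the same factor than healthy nodes (0.32, SE 0.09, adjusted p = 0.0219). Both calls depended on single libraries. The first was lost without tumor replicate 1, 2 or 4 or agonist replicate 2 or 4 (adjusted p 0.0805 to 0.121), and the second without healthy replicate 1, 3 or 4 or agonist replicate 2 or 4 (0.0527 to 0.0937). Without the block the adjusted p was 0.342 and 0.271. Tumor against healthy nodes gave 0.00 on the log2 scale with the block (SE 0.09, adjusted p = 0.983) and -0.01 without it.

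Rela, the main activating subunit of the canonical route, had 95.1, 98.6, 124 and 134 CPM in agonist replicates 1 to 4, 88, 86.2, 105 and 129 CPM in tumor replicates, and 83, 94, 104 and 118 CPM in healthy replicates. Differences within a prefix were small beside those between prefixes. Agonist libraries were higher in 4 of 4 prefixes than both tumor and healthy ones, by 1.11-fold (log2 fold change 0.15, SE 0.06, adjusted p = 0.141 with the block) and 1.13-fold (0.18, SE 0.06, adjusted p = 0.0625). Neither passed, although leaving out healthy replicate 2 brought the second to 0.0456. Tumor and healthy nodes differed by 0.03 (SE 0.06, adjusted p = 0.806 with the block).

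Nfkbia encodes IkB-alpha, the inhibitor that is quickly destroyed and then made anew under NF-kB control. It had 437, 362, 526 and 504 CPM in agonist replicates 1 to 4, 326, 291, 305 and 372 CPM in tumor replicates, and 318, 302, 284 and 332 CPM in healthy replicates. All agonist libraries were above all healthy ones, and tumor replicate 4 lay within the agonist range. The rise against healthy nodes was 1.48-fold without the block (log2 fold change 0.57, SE 0.14, adjusted p = 0.0284) and 1.47-fold with it (0.56, SE 0.09, adjusted p = 0.00132). Against tumor nodes it was 1.41-fold in both fits (0.50), called with the block (SE 0.09, adjusted p = 0.00421) and not without it (SE 0.14, adjusted p = 0.0849). It was higher in 4 of 4 prefixes in each comparison. Tumor nodes differed from healthy ones by 0.06 (SE 0.09, adjusted p = 0.719 with the block). Without the block the call against healthy nodes was lost in 7 of 12 fits that left out 1 library (any healthy one, tumor replicate 1, or agonist replicate 3 or 4; adjusted p 0.0507 to 0.116), and with the block in none of 12.

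Nfkbie encodes IkB-epsilon, a slower inhibitor of the same kind. Its values were 155, 169, 219.98 and 209 CPM in agonist replicates 1 to 4, 142, 145, 165 and 203 CPM in tumor replicates, and 126, 139, 156 and 176 CPM in healthy replicates. As for Nfkb2, the agonist library was highest and the healthy one lowest in every prefix, and the groups overlapped. With the block it rose 1.26-fold in agonist against healthy nodes (log2 fold change 0.33, SE 0.07, adjusted p = 0.00549), whereas without it the adjusted p was 0.311. The values of 0.20 against tumor nodes (SE 0.07, adjusted p = 0.0796) and 0.13 for tumor against healthy nodes (SE 0.07, adjusted p = 0.267) did not pass with the block.

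Bcl3, a nuclear relative of the IkB proteins that binds pairs of the Nfkb1 and Nfkb2 products, had 47.2, 58.2, 91.8 and 88.5 CPM in agonist replicates 1 to 4, 56.8, 55.8, 74.1 and 83.9 CPM in tumor replicates, and 32.7, 38, 49.2 and 58 CPM in healthy replicates. The healthy library was the lowest in every prefix. It rose with the block 1.54-fold in tumor against healthy nodes (log2 fold change 0.62, SE 0.08, adjusted p = 0.00322), and 1.59-fold in agonist against healthy nodes (0.67, SE 0.08, adjusted p = 0.000244). Agonist and tumor nodes differed by 0.05 (SE 0.08, adjusted p = 0.786), higher in 3 prefixes and lower in 1. Without the block the adjusted p was 0.486 for tumor and 0.112 for agonist against healthy nodes.

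Tnfaip3 encodes A20, an enzyme that edits ubiquitin chains and damps the signal upstream of IKK. It had 362, 346, 387 and 448 CPM in agonist replicates 1 to 4, 291, 284, 299 and 325 CPM in tumor replicates, and 367, 352, 279.8 and 301 CPM in healthy replicates. All agonist libraries exceeded all tumor libraries, and the healthy ones split into a higher pair (replicates 1 and 2) and a lower pair (3 and 4). With the block the agonist rise over tumor nodes was 1.29-fold (log2 fold change 0.36, SE 0.10, adjusted p = 0.0339, higher in 4 of 4 prefixes), while without it the adjusted p was 0.207. This call was lost when any tumor library, agonist replicate 3 or agonist replicate 4 was left out (adjusted p 0.0519 to 0.122). Against healthy nodes the log2 differences were -0.02 in replicates 1 and 2 and 0.47 and 0.57 in replicates 3 and 4, and the fitted 0.25 did not pass (SE 0.10, adjusted p = 0.114 with the block). Tumor against healthy nodes gave -0.12 (SE 0.10, adjusted p = 0.494).

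Nfkbiz encodes the nuclear cofactor IkB-zeta, which is induced by Toll-like receptors and interleukin-1 and helps switch on a second wave of genes. It had 63.7, 42.5, 36.8 and 33.5 CPM in agonist replicates 1 to 4, 55.7, 47.6, 39.8 and 35.3 CPM in tumor replicates, and 66.3, 57.8, 34 and 44.1 CPM in healthy replicates. The values followed the prefix more than the group: replicates 3 and 4 had 0.662, 0.727 and 0.63 times the mean of replicates 1 and 2 in agonist, tumor and healthy nodes. With the block the log2 differences were -0.04 for agonist against tumor, -0.16 for tumor against healthy and -0.20 for agonist against healthy nodes, with adjusted p-values of 0.856, 0.336 and 0.19. The last reached 0.0318 when healthy replicate 3 was left out.

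**Figure D3:**
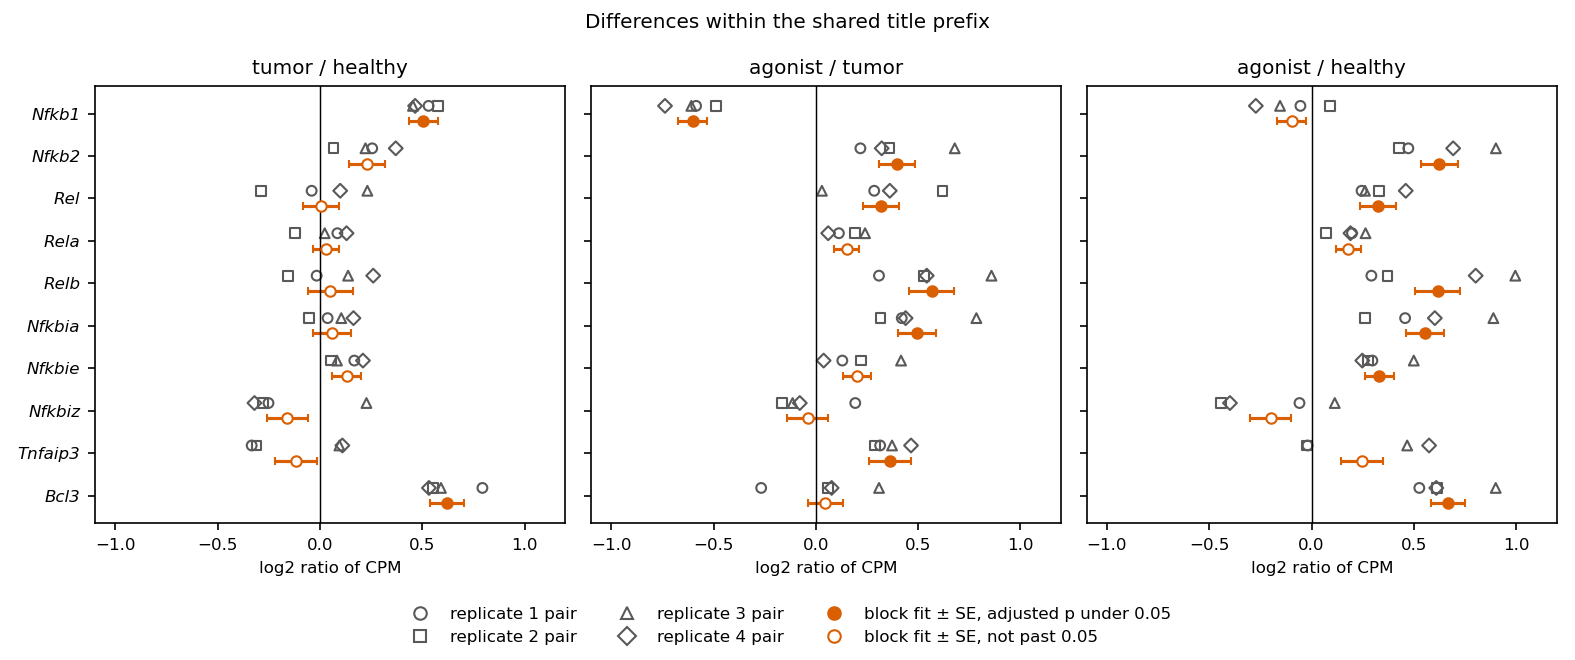
Log2 ratios of CPM within each title prefix (open grey symbols, 1 per prefix) and the fit with the prefix as a block (orange, ± SE, filled where the adjusted p is under 0.05), for the 3 comparisons. Nfkb1 lies right of 0 in tumor against healthy nodes and left of it in agonist against tumor nodes. Relb, Nfkb2 and Nfkbia lie right of 0 in both agonist comparisons, as do Rel, Rela and Nfkbie.

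Ratios between members of 1 library do not depend on how libraries are scaled against each other. The ratio of Nfkb2 to Nfkb1 in TPM was 0.884, 0.821, 0.825 and 0.907 in agonist replicates 1 to 4, 0.49, 0.435, 0.345 and 0.444 in tumor replicates, and 0.621, 0.604, 0.401 and 0.474 in healthy replicates. Agonist libraries did not overlap either other group, and the ratio was higher by 1.01 on the log2 scale than in tumor nodes and by 0.73 than in healthy nodes. A two-sided exact permutation test gave p = 0.0286 for each, the smallest that 4 against 4 libraries allow, and 0.0643 after adjustment over 9 ratio tests. In tumor against healthy nodes the difference was -0.28, lower in 4 of 4 prefixes (exact permutation p = 0.229, adjusted 0.294).

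The Relb to Rela ratio was 5.49, 6.1, 6.19 and 6.35 in agonist replicates 1 to 4, 4.81, 4.92, 4.07 and 4.61 in tumor replicates, and 5.3, 4.94, 3.76 and 4.22 in healthy replicates. Agonist libraries were again above all others, by 0.39 on the log2 scale against tumor and 0.42 against healthy nodes (exact permutation p = 0.0286, adjusted 0.0643, for each). Tumor and healthy nodes differed by 0.02 (exact permutation p = 0.914). For Nfkbie over Nfkbia the ratio was 0.137, 0.19, 0.164 and 0.157 in agonist, 0.174, 0.209, 0.207 and 0.217 in tumor and 0.153, 0.185, 0.222 and 0.211 in healthy replicates. It was lower in agonist than in tumor nodes in 4 of 4 prefixes, by 0.32 on the log2 scale, with overlap (exact permutation p = 0.0571, adjusted 0.103). No ratio passed 0.05 after adjustment, and the sign-flip test over 4 prefixes, whose smallest p is 0.125, cannot pass.

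**Figure D4:**
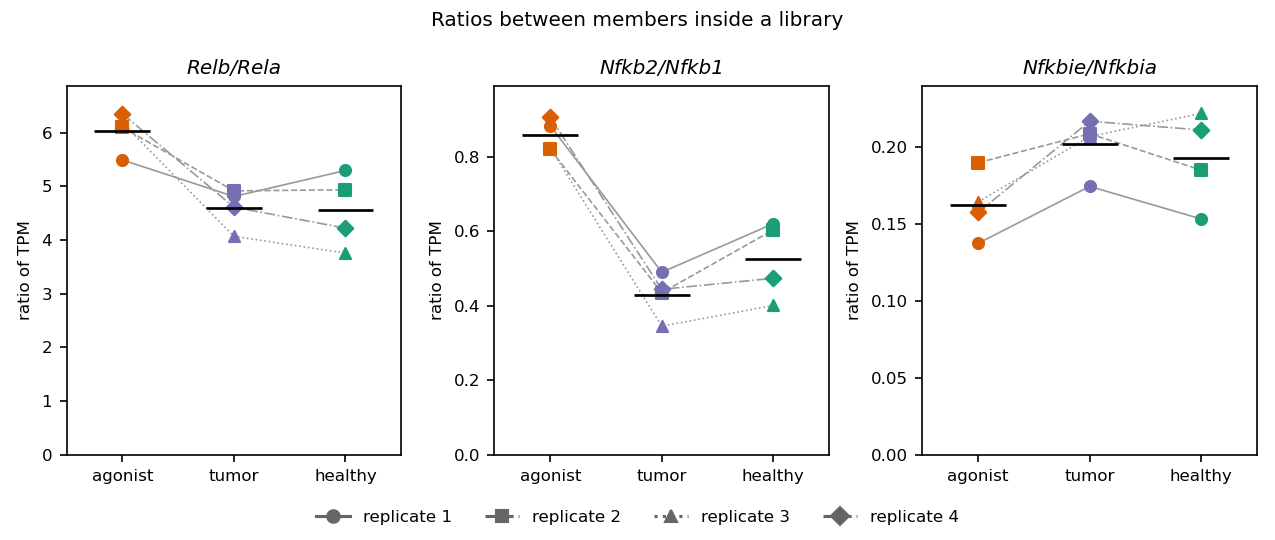
Ratios of TPM between pairs of members inside each library, agonist, tumor and healthy nodes from left to right, black lines at group means and grey lines joining libraries with the same title prefix. The 4 agonist libraries lie above all other libraries for Relb over Rela and for Nfkb2 over Nfkb1.

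Transcript shares were described for members with more than 1 annotated transcript. The main Nfkb1 transcript (Nfkb1-206) held 52% of its estimated counts on average. The coding transcript Nfkb1-203 held 11.8% to 14.3% in agonist, 15.1% to 20.1% in tumor and 15.1% to 19.2% in healthy libraries. Its agonist libraries lay below the others. Relb-201, a coding transcript of Relb, held 11.9% to 14.2% in agonist, 9.41% to 20.6% in tumor and 16.8% to 24.4% in healthy libraries. There the agonist libraries lay below the healthy ones and overlapped the tumor ones. The share of all transcripts that separate in this way was not worked out. Of the Nfkbia counts, 25.8% on average were assigned to a transcript that keeps an intron, with 23.7% to 29.1% in agonist, 21.6% to 28.4% in tumor and 23.5% to 28.3% in healthy libraries. These shares rest on the model that divides reads among transcripts. Rel, Rela and Nfkbie have a single annotated transcript. A few genes overlap members: Gm43430 lies on the strand of Nfkb1 with a mean count of 431 against 21783, and Psd lies opposite Nfkb2 with 1023 against 15171. The library kit keeps the strand of the RNA per the labels' protocols, but no source here says whether quantification used it.

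The rest of the pathway was read from lists of genes that act around the members. Targets of NF-kB form the longest list. Of these 40 genes, 11 rose and none fell in agonist against tumor nodes without the block, and 22 rose and none fell with it, with a median log2 fold change of 0.56 and 0.60 over the list. Of all genes, 1.85% were called higher and 0.83% lower without the block in this comparison, and 6.74% and 6.58% with it. Il6, a proinflammatory cytokine, averaged 4.43 ± 1.44 CPM in agonist and 0.723 ± 0.182 CPM in tumor nodes (log2 fold change 2.61, SE 0.35, adjusted p = 0.00179 without the block). Ccl5, a chemokine for T cells, averaged 785 ± 206 CPM in agonist and 201 ± 44.3 CPM in tumor nodes (1.96, SE 0.27, adjusted p = 0.00189). Ebi3, a subunit of interleukin-27, and Tnfsf4, the ligand of OX40 on T cells, rose by 1.07 (SE 0.16) and 2.05 (SE 0.35) on the same scale (adjusted p = 0.00332 and 0.00635). Against healthy nodes 21 of the 40 rose without the block and 25 with it, and none fell, beside 4.25% of all genes called higher and 2.03% lower without the block and 11.7% and 8.46% with it. Cxcl10, an interferon-responsive chemokine, averaged 52.8 ± 15.7 CPM in agonist and 10 ± 2.71 CPM in healthy nodes there (2.40, SE 0.31, adjusted p = 0.000451). In tumor against healthy nodes 6 of the 40 rose and none fell with the block, beside 4.02% of all genes called higher and 2.28% lower, and none was called without it, beside 0.198% of all genes. Bcl2a1b and Bcl2a1d, near-identical survival genes whose reads may be divided between copies, rose by 0.58 (SE 0.07, adjusted p = 0.00211) and 0.54 (SE 0.09, adjusted p = 0.00861).

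Kinases and adaptors stand between the receptors and the members. Of 30 kinases and adaptors, 2 rose in agonist against tumor nodes without the block, beside 1.85% of all genes, and 5 rose and 3 fell with it, beside 6.74% and 6.58%. Ikbke, an IKK-related kinase, averaged 27.5 ± 5.74 CPM in agonist and 13.8 ± 1.38 CPM in tumor nodes (log2 fold change 0.999, SE 0.16, adjusted p = 0.00513 without the block). Traf1, an adaptor of tumor necrosis factor family receptors and a known NF-kB target, averaged 644 ± 45.5 CPM in agonist and 399 ± 26.2 CPM in tumor nodes (0.69, SE 0.12, adjusted p = 0.00767). The 3 that fell with the block, named here after their values were seen, were Map3k14, Myd88 and Irak4. Map3k14, the kinase of the slower route, averaged 113 ± 23.6 CPM in agonist, 138 ± 30.8 CPM in tumor and 131 ± 25.5 CPM in healthy nodes. Its log2 fold change in agonist against tumor nodes was -0.30 in both fits (adjusted p = 0.0174 with the block, 0.645 without), and against healthy nodes -0.21 (adjusted p = 0.0551 with the block). Against healthy nodes 3 of the 30 rose without the block and 9 with it, and none fell, beside 4.25% and 11.7% of all genes called higher. Traf3, which holds the slower route in check, was among the 3 at 128 ± 27.4 CPM in agonist and 85.1 ± 9.63 CPM in healthy nodes (0.59, SE 0.16, adjusted p = 0.0414). In tumor against healthy nodes 3 rose with the block, beside 4.02% of all genes, and none without it. Among them were Myd88, an adaptor of Toll-like receptors, by 0.76 (SE 0.11, adjusted p = 0.0049), and Irak4, a kinase that Myd88 recruits, by 0.34 (SE 0.07, adjusted p = 0.0141).

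Of 14 receptors, none was called in agonist against tumor nodes without the block, and 2 rose and 1 fell with it, beside 13.3% of all genes called in that fit. Cd40, the receptor of the agonist, averaged 154 ± 6.85 CPM in agonist and 126 ± 19.2 CPM in tumor nodes (log2 fold change 0.31, SE 0.08, adjusted p = 0.0193 with the block, 0.337 without). Il1rap, a coreceptor for interleukin-1, fell by 0.66 on the log2 scale with the block (SE 0.15, adjusted p = 0.0149). Tlr7, a sensor of RNA, rose in agonist against healthy nodes in both fits (0.89, SE 0.17, adjusted p = 0.00593 without the block). No other receptor was called there without the block, and 4 rose and 1 fell with it, beside 20.1% of all genes called. It also rose in tumor against healthy nodes with the block, the single receptor of 14 called there (0.62, SE 0.11, adjusted p = 0.0117), where 6.3% of all genes were called. Of 17 ubiquitin editors and partners of A20, none was called without the block in agonist against tumor nodes, and 3 rose and 2 fell with it (13.3% of all genes called), among them N4bp1 (0.49, SE 0.08, adjusted p = 0.00215) and Tnip1 (0.46, SE 0.09, adjusted p = 0.00489). N4bp1 and Usp18 were the 2 called against healthy nodes without the block, at 0.75 (SE 0.12, adjusted p = 0.00224) and 0.63 (SE 0.17, adjusted p = 0.0389), where 5 rose and 1 fell with it (6.28% of all genes called without the block and 20.1% with it). In tumor against healthy nodes 2 rose and 1 fell with the block (6.3% of all genes). Otulin, an enzyme that cuts linear ubiquitin chains, rose by 0.34 (SE 0.06, adjusted p = 0.0103), and Tnip3, an A20-binding protein, fell by 0.59 (SE 0.12, adjusted p = 0.017). Among 7 further IkB and Rel regulators 1 was called, with the block in both agonist comparisons. Of all genes, 13.3% were called in that fit against tumor nodes and 20.1% against healthy nodes. The gene was Nfkbib, encoding IkB-beta, higher by 0.52 against tumor nodes (SE 0.10, adjusted p = 0.00458) and 0.58 against healthy nodes (SE 0.10, adjusted p = 0.00158).

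**Figure D5:**
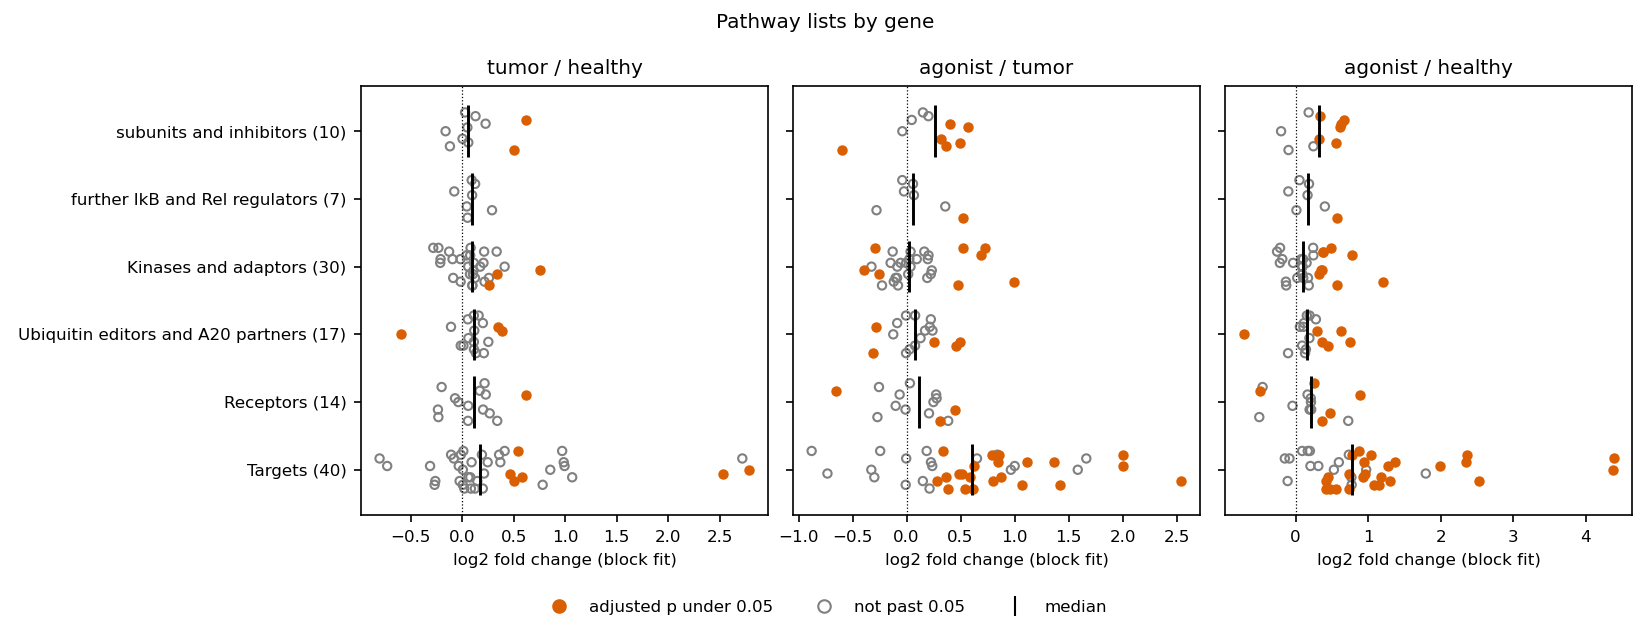
Log2 fold change of each gene of the 6 lists in the fit with the prefix as a block, filled where the adjusted p is under 0.05, with a black line at the median of the list and the number of genes in brackets. In agonist against tumor and agonist against healthy nodes 22 and 25 of the 40 targets are called higher, beside 6.74% and 11.7% of all genes, and none lower, beside 6.58% and 8.46%.

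The levels of cell markers also differed between groups. Of 5 general dendritic cell markers, 4 fell in agonist against tumor nodes with the block and none was called without it, beside 6.58% and 0.83% of all genes called lower. Itgax, which encodes CD11c, averaged 731 ± 129.7 CPM in agonist, 968 ± 188 CPM in tumor and 832 ± 209 CPM in healthy nodes, and its log2 fold change in agonist against tumor nodes was -0.39 (adjusted p = 0.026 with the block, 0.431 without). Flt3, a growth factor receptor of dendritic cells, fell by 0.56 with the block (adjusted p = 0.00174), and the class II antigen presentation genes H2-Ab1 and Cd74 by 0.62 and 0.61 (adjusted p = 0.00582 and 0.00583). Against healthy nodes H2-Ab1 was lower also without the block (-0.73, adjusted p = 0.0495), and 4 of the 5 fell with it (Flt3, Zbtb46, H2-Ab1 and Cd74). The summed level of 6 migratory dendritic cell markers ranged over 5390 to 7841 CPM in agonist, 2817 to 4195 CPM in tumor and 3392 to 4992 CPM in healthy libraries. Of these 6, 5 rose with the block and 2 without it in agonist against tumor nodes, and 4 and 2 against healthy nodes, beside 6.74%, 1.85%, 11.7% and 4.25% of all genes. Ccr7, the receptor that guides mature dendritic cells to the node, was at 762 ± 139 CPM in agonist and 236 ± 35.4 CPM in tumor nodes (log2 fold change 1.69, SE 0.22, adjusted p = 0.00139 without the block).

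Subsets of dendritic cells and monocytes were read in the same way. Of all genes, 6.58% were called lower in agonist against tumor nodes with the block and 0.83% without it. Against healthy nodes these shares were 8.46% and 2.03%. The shares called higher with the block were 6.74% and 11.7% in the same order of comparisons. Without the block 4.25% were called higher in agonist and 0.181% in tumor against healthy nodes. The sum of 5 type 1 dendritic cell markers was 898 to 1883 CPM in agonist, 1749 to 3535 CPM in tumor and 2115 to 3713 CPM in healthy libraries, and most of it was Wdfy4, at a mean of 1318, 2217 and 2438 CPM. With the block 4 of these 5 fell in each agonist comparison, and Batf3 rose (0.55 against tumor and 0.54 against healthy nodes, adjusted p = 0.00264 and 0.00186). Without the block Clec9a alone fell against tumor nodes, and Clec9a, Xcr1 and Cadm1 fell against healthy nodes. Of 5 type 2 dendritic cell markers, Cd209a and Clec10a fell in both agonist comparisons in both fits. Cd209a averaged 28.7 ± 15 CPM in agonist, 183 ± 50.3 CPM in tumor and 253 ± 77.4 CPM in healthy nodes (adjusted p = 0.00144 against tumor nodes without the block). Clec4a4, on the same list, rose without the block against healthy nodes in agonist and tumor nodes (1.78 and 1.99, adjusted p = 0.00611 and 0.0436). Of 5 monocyte markers, 2 fell in both agonist comparisons and both fits. Ccr2, a chemokine receptor of monocytes, averaged 132 ± 11.1 CPM in agonist, 363 ± 64.5 CPM in tumor and 390 ± 78.4 CPM in healthy nodes (adjusted p = 0.000761 against tumor nodes without the block), and F13a1 was the other. Of 5 plasmacytoid dendritic cell markers, 3 fell in both agonist comparisons with the block and none without it. Siglech and Ccr9 were 2 of them, at -1.16 and -1.13 against tumor nodes (adjusted p = 0.000185 and 0.00202).

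Markers of other cell types were present as well. Of all genes, 1.85% were called higher and 0.83% lower in agonist against tumor nodes without the block. In agonist against healthy nodes these shares were 4.25% and 2.03% without the block, and 11.7% and 8.46% with it. In tumor against healthy nodes 0.181% were called higher without the block. The sum of 7 macrophage markers was 1085 to 1645 CPM in agonist, 540.02 to 989 CPM in tumor and 495 to 743 CPM in healthy libraries. Without the block 3 of 7 rose in agonist against tumor nodes, and 6 rose and 1 fell against healthy nodes. The one that fell was Adgre1, which encodes F4/80, at 97.6 ± 6.82 CPM in agonist, 150 ± 25.1 CPM in tumor and 155 ± 33.9 CPM in healthy nodes (-0.67 against healthy nodes, adjusted p = 0.0295 without the block, and -0.61 against tumor nodes, adjusted p = 0.0024 with it). Neutrophil markers summed to 33.7 to 88.8 CPM in agonist, 30.2 to 94.4 CPM in tumor and 14.3 to 18.1 CPM in healthy libraries. Of that list Ly6g and Camp, with at most 4 and 5 counts in a library and 0 in 6 and 3 libraries, fell under the count filter. B cell markers summed to 258 to 436 CPM in agonist, 284 to 483 CPM in tumor and 213 to 384 CPM in healthy libraries. Agonist and tumor nodes each had more Jchain and Mzb1, 2 of 5 markers of plasma cells, than healthy nodes without the block, with Jchain at 28.6 ± 14 CPM in agonist, 45.3 ± 28.5 CPM in tumor and 4.58 ± 1.7 CPM in healthy nodes (adjusted p = 0.00381 and 0.0253). The sum of 6 T cell markers was 68.3 to 103 CPM in agonist, 68.8 to 108 CPM in tumor and 69.6 to 113 CPM in healthy libraries, and most of it was Tcf7, at a mean of 59.7, 62.1 and 42.2 CPM. Without the block 4 of the 6 fell in agonist against healthy nodes, among them Cd3g at 5.74 ± 1.68 CPM in agonist and 13.6 ± 2.58 CPM in healthy nodes (adjusted p = 0.0479). With the block 5 fell there and Tcf7 rose (0.49, adjusted p = 0.00496). Of 6 natural killer cell markers, Gzma rose and Klrd1 fell in both agonist comparisons without the block. The part of all these shifts in the levels of Relb, Nfkb2, Nfkbia and the other members was not tested.

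Genes with the pattern most like a member were found by Pearson's r over the 12 libraries on log2 CPM centred within the prefix, among the 11692 genes whose mean log2 CPM was 2 or more. The values are a description, since the points share libraries, depth and prefix and the genes were picked from all those searched. Closest to Nfkb1 were Cbx8 (r = 0.997), Zbed4 (0.992) and Cnnm4 (0.985), and closest to Relb were Dda1 (0.989), Icam1 (0.988), an adhesion molecule on the list of targets, and Itpk1 (0.986). For Nfkb2 the closest was Fam167a (0.986), for Nfkbia Rilpl2 (0.993), for Nfkbie Lrch4 (0.986), for Bcl3 Arhgap1 (0.991), for Tnfaip3 Mxd1 (0.988), for Rel Gbgt1 (0.982) and for Rela Repin1 (0.98). Rnf31, a subunit of the enzyme complex that attaches linear ubiquitin chains, was also among the closest to Rela (0.975). Nfkbiz had the loosest match, Slc39a14 (0.948), followed by Zfyve27 (0.891).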

How the data were processed

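RNA-seq of CD11c cells from mouse inguinal lymph nodes was taken from 2 deposited tables of 132374 transcripts. The estimated counts were deposited by the authors per transcript, made with Salmon on mm10 per the submitters' processing notes, and not normalized. The deposited TPM values have the same total in every library. The tables' own name says sailfish, a related program, and no source here gives a version, an annotation release or a filter. RNA was isolated with a Qiagen micro kit and libraries were made with a NEBNext directional kit, per the labels' protocols.

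Transcripts were matched by identifier to GENCODE M21. The 131974 that matched were summed to 52355 genes and rounded, and 400 were left out (0.116% to 0.147% of a library). No column of per-sample values was left unused (0). Libraries of a group were not duplicates: among 18 pairs, chi-square over its degrees of freedom was at least 27.8. Counting error was small beside the spread between libraries.

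Genes were fitted in edgeR 4.0.16 (R 4.3.3; quasi-likelihood F test, robust; TMM scaling; filterByExpr with a minimum count of 10), on all 12 libraries with a term for group only (9 residual degrees of freedom). The fit with the title prefix as a block had 6. The prefix was taken as a pairing because libraries with the same prefix deviated together from their group means: 12 such pairs correlated at 0.20 to 0.47, and 36 other pairs had a median of -0.24 (-0.45 to 0.33). Deviations from a group mean sum to 0 within the group. The negative median of the other pairs is therefore partly built in and is not separate support for the pairing. For members, both fits are given beside each other where the block changes a call. Ratios of TPM were compared by two-sided exact permutation over 70 arrangements of 4 against 4 libraries. CPM values are scaled by TMM.

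Alternatives were DESeq2 1.42.0, limma 3.58.1 (voom, and trend on log2(TPM + 0.1)), other scaling, no count filter, only the 2 groups compared, and leaving out each library. All 10 members are named in every comparison. Of the other lists, the genes named are those called without the block, at most 4 per list, direction and comparison, or if none was called at most 2 called with it. Some genes were named outside this rule with their values already known, among them Map3k14, Itgax, Cd74, Zbtb46, Batf3, Wdfy4 and Tcf7. Members and lists were chosen with earlier results of these data known. Promoter sequences are from RefSeq (GRCm38.p6); a narrower form of the kappaB motif was also searched and is not reported here.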

Additional observations from a re-analysis of the deposited data

Results flagged for a closer look

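Relb in tumor-draining nodes was marked because 1 library stood apart from its group. Replicate 4 had 431.8 CPM, and the other 3 had 307 to 309.8 CPM. The gap to the nearest library was 0.978 of the range of the group, above the critical value of Dixon's test for 4 libraries. It was the single case among 39 groups of 4 libraries checked, and chance alone marks about 1 in 20. With the prefix as a block, Relb was called higher in agonist against tumor nodes whichever library was left out.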

How the results depend on the processing

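Starting from the fit without the block, settings other than leaving out a library gave 240 values for members. Of these, 209 kept their direction and side of the threshold, 17 gained a call, 7 lost one and 7 changed sign. Adding the replicate block was among these settings and gave most of the gained calls. With the replicate block 54 of 60 kept both. No call changed its direction. The replicate block, the pairing by title prefix, moved genes called to 1495 (tumor against healthy), 3161 (agonist against tumor) and 4781 (agonist against healthy), against 47, 635 and 1490 without it, and members called to 2, 6 and 6, against 0, 0 and 2. Genes called in tumor against healthy nodes were 393 by DESeq2, 1 by limma voom, 10 on TPM, 75 with no count filter, 25 with only the 2 groups and 30 with upper-quartile scaling. For agonist against tumor nodes they were 1182 by DESeq2, 266 on TPM and 973 with upper-quartile scaling, and for agonist against healthy nodes 818 on TPM. Members called in agonist against tumor nodes were 1 by DESeq2 and 2 with upper-quartile scaling. In agonist against healthy nodes they were 0 on TPM, with no count filter and with only the 2 groups, and 1 with RLE scaling.

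Leaving out 1 library gave 0 to 101, 323 to 547 and 829 to 1535 genes called without the block and 246 to 1851, 2059 to 3243 and 3012 to 4989 with it, in the same order. Members called without the block were 0, 0 and 0 to 4, and with it 2, 4 to 6 and 5 to 7. Upper-quartile scaling shifted the median of all genes to -0.11 in tumor and -0.12 in agonist against healthy nodes. Its higher and lower calls were 571 and 402 in agonist against tumor nodes (438 and 197 with TMM) and 950 and 861 in agonist against healthy nodes (1009 and 481). With the block it gave 557 and 1086 in tumor against healthy nodes (954 and 541 with TMM) and 1999 and 3154 in agonist against healthy nodes (2774 and 2007).

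No result that changed sign was called in any setting run. In tumor against healthy nodes Rel was 0.021 by DESeq2, 0.021 with RLE scaling and 0.0040 with the block, and Rela was -0.015 on TPM. Upper-quartile scaling gave Rela -0.066, Relb -0.040 and Nfkbia -0.036 without the block, and Rel -0.096, Rela -0.070, Relb -0.047 and Nfkbia -0.037 with it. Leaving out libraries, Nfkbia ranged over -0.0062 to 0.12 (-0.0074 to 0.13 with the block), Rel -0.095 to 0.072 (-0.085 to 0.10), Rela -0.096 to 0.13 (-0.0044 to 0.072) and Relb -0.070 to 0.12 (-0.030 to 0.13). In agonist against tumor nodes Bcl3 ranged over -0.066 to 0.24 (-0.039 to 0.13) and Nfkbiz over -0.25 to 0.093 (-0.10 to 0.040), and Nfkb1 over -0.27 to 0.024 in agonist against healthy nodes. The log2 ratios in tumor against healthy nodes ranged over -0.031 to 0.15 (Nfkbie over Nfkbia) and -0.064 to 0.10 (Relb over Rela). The cause was not tested.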

Other observations

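The agonist difference of several members was unequal across prefixes. For Relb the log2 difference between agonist and healthy nodes was 0.29 and 0.37 in replicates 1 and 2, and 0.996 and 0.80 in replicates 3 and 4. For Nfkbia it was 0.46 and 0.26 in replicates 1 and 2, and 0.89 and 0.60 in replicates 3 and 4. Tnfaip3 gave -0.02 in both of the first pair and 0.47 and 0.57 in the second. Healthy libraries contribute to this for Tnfaip3, with 0.809 times as much in replicates 3 and 4 as in 1 and 2. For Relb and Nfkbia the healthy ratio was 0.981 and 0.994. For both of these, healthy replicate 3 was the lowest healthy library (282 and 284 CPM) and replicate 4 the highest (361 and 332 CPM). These splits were seen in the data, were not tested, and what the prefix stands for is not stated.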
